A study of Mus musculus with 89 samples.

Results

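The MEF2 genes Mef2a, Mef2c and Mef2d were followed through 2 deposited tables of exon skipping of the mouse nucleus accumbens, part of the reward circuit. Their members are all listed events of these 3 genes, an event being an exon with its neighbours on each side and the reads that include or skip it. The table of the herpes simplex virus (HSV) experiment held 18 such events among 27900, of which 3 were in Mef2a, 4 in Mef2c and 11 in Mef2d. The table of the dCas9-SET2 experiment held 3 among 5608, 1 in each gene. Mef2b, the remaining gene of the family, had 0 events in both tables. The rule takes every listed event of these genes, whatever its values.

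MEF2 proteins are MADS-box transcription factors that bind an AT-rich element as dimers. In neurons they act downstream of calcium entry: class IIa histone deacetylases hold them in a repressed state, and calcineurin and several kinases change their activity. They are known for limiting excitatory synapse number, in the striatum too, and their targets include genes of the synapse. The transcripts carry a pair of mutually exclusive exons just after the DNA-binding part, called alpha, and a short exon further on, called beta, that lies in the transactivation part and is included mainly in brain and muscle. Beta-containing forms are the more active ones in reporter assays.

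The RNA samples came from wild-type C57BL/6 mice of 8 weeks, as total RNA of micro-punches of nucleus accumbens. The HSV experiment had 3 groups of 3 libraries each. Its vectors carried GFP, Set2, the methyltransferase that places H3K36me3 over gene bodies, or a Set2 with the substitution R195G. In the dCas9-SET2 experiment, all samples received catalytically inactive Cas9 fused to SET2, with sgRNA-SRSF11, a guide to a splicing factor gene, or the non-targeting sgRNA-NT, and each guide had 16 runs under 4 sample names. The other 48 of the 89 samples of the series (ChIP, input and CUT&RUN) were not analysed here. The tables name no library. Values are therefore given for the HSV table as a 2-library and a 3-library set and for the dCas9-SET2 table as a first and a second set, and no virus or guide was assigned to any of them. HSV libraries are numbered in the order of the table, 1 and 2 in the 2-library set and 3 to 5 in the other. The labels do not say that libraries came from separate animals, so p-values measure only the spread between these libraries, which may be technical. For inclusion in the HSV libraries, limma took 1 spread for all events and scaled it by reads. The SE, interval and p-value of an exon therefore do not measure its own spread between libraries.

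The 5 HSV libraries held 7428974 to 8638249 reads over all listed events, with a median of 101.6 reads per event and library. The dCas9-SET2 runs were far shallower, at 79799 to 106251 (first set) and 56946 to 84870 reads (second set) per run and a median of 4.8 reads per event and run. In both of its sets, positions 4 and 8 held the same value in 100% of counts. They were counted as 1 run in the levels below, which leaves 15 distinct runs per set. The HSV sets also differed in cell-type and interferon markers. All 7 measured medium spiny neuron markers of 10 had lower coverage in the 3-library set, with a summed level of 8810 and 7030 CPM (reads scaled to a common library total) in libraries 1 and 2 and 2770 to 2990 in libraries 3 to 5. Drd1 and Adora2a were among the markers without a value. Interferon response genes summed to 59.9 and 118 CPM against 2220 to 2570, with all 6 measured genes of 9 higher. Of 5 oligodendrocyte markers 4 were higher (5380 and 6590 against 7000 to 9020 CPM), and so were 4 of 6 measured microglia markers (647 and 1430 against 1550 to 1680 CPM), with library 1 the lowest. Astrocyte markers (2 of 4 measured) and interneuron markers (2 of 3) had calls that were all higher. Over all 8201 genes, 9.51% were called as lower in the 3-library set and 13.2% as higher. Cortical excitatory neuron and endothelium markers had no value, so those cell types were not checked. The part of these differences in the results below was not tested, and in bulk tissue fewer cells of a type and less RNA per cell cannot be told apart.

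Coverage of all 3 genes was lower in the 3-library set. Coverage is the number of reads over the deepest event of a gene, scaled between libraries by TMM and given as CPM. It is a partial stand-in for expression. All 3 genes passed the test at an adjusted p of 0.05, where 22.7% of 8201 genes did and 9.51% in this direction. Coverage in libraries 3 to 5 lay below both of the others, with no overlap, for all 3 genes, and for 23.8% of the 8201 genes. Among all genes the median log2 difference was 0.

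Mef2a had 120 and 107 CPM in libraries 1 and 2, and 76.7, 64.1 and 84.4 in libraries 3 to 5. The log2 difference was -0.60 (SE 0.14, adjusted p = 0.00828, limma), or 34.2% lower. Mef2c, the member with the best known role in neuronal development, had 105 and 102 CPM against 82.8, 41.6 and 69.1. Library 4 was the lowest of the 5, and the log2 difference was -0.74 (SE 0.23, adjusted p = 0.0333, limma), or 40.0% lower. Without library 4 it was -0.45 with an adjusted p of 0.0594 in limma, and without library 5 it was -0.81 with 0.0532. Mef2d had 368 and 285 CPM against 209, 232 and 259. Its log2 difference was -0.48 (SE 0.12, adjusted p = 0.0138, limma), or 28.2% lower. Library 1 was the highest: without it the difference was -0.29 and the adjusted p 0.0868 in limma, and without library 3 they were -0.40 and 0.0691.

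The lower coverage was seen along each gene and not at a single exon. The log2 ratio of reads between the sets was -0.60 to -0.55 over the 3 Mef2a events. It was -0.84 to -0.64 over the 3 Mef2c events with at least 100 reads and -0.48 to -0.25 over the 10 such events of Mef2d. A Mef2c exon of 138 nt (0.44 on 18 reads) and a Mef2d exon of 135 nt (-2.05 on 48 reads) stood apart at low depth. Events of 1 gene share reads and libraries and are not replicates. With the reads of the short exon's event in place of the deepest, Mef2d was at -0.29 with an adjusted p of 0.194 in limma, while Mef2a and Mef2c passed the test.

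**Figure D1:**
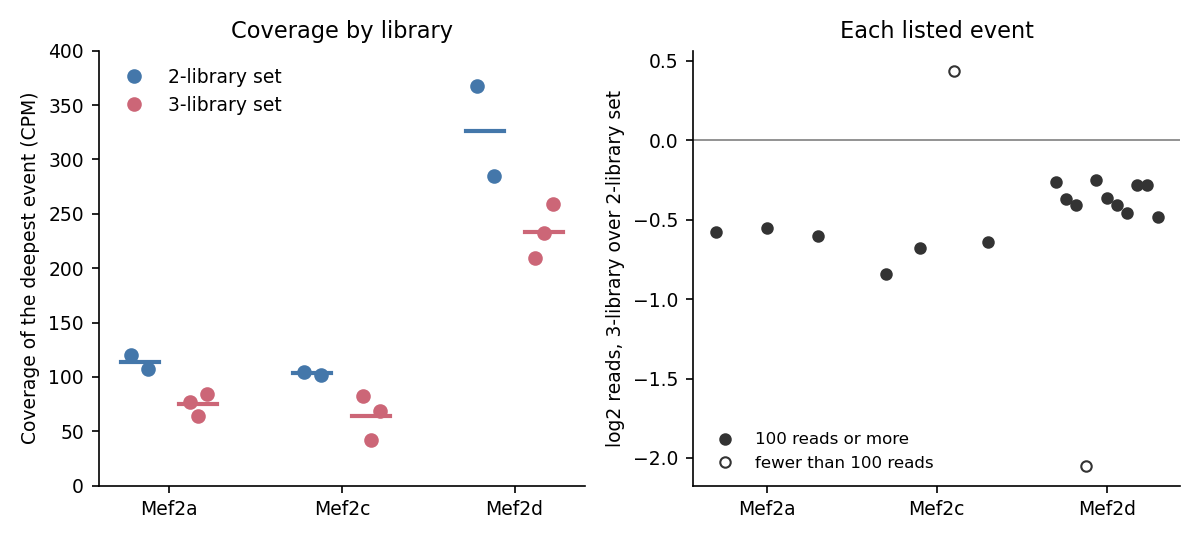
Coverage of the MEF2 genes in the HSV libraries. Left, CPM of the deepest event of each gene, 1 point per library with a line at the mean of each set; the 3 points of the 3-library set lie below both points of the 2-library set in each of the 3 genes, as in 23.8% of all genes. Right, log2 ratio of reads between the sets for each listed event, in coordinate order, with events of fewer than 100 reads as open circles; the filled points lie between -0.84 and -0.25.

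Promoters of the 3 genes are shown because coverage of all of them was lower together. Each is the 250 bases before an annotated start, 5′ to 3′ on the strand of the gene, from RefSeq (GRCm38.p6). All 3 genes had an entry, Mef2c with 3 starts, of which the first is printed. Capitals mark matches, on either strand, to the motifs named after the sequences. The Mef2a promoter is chr7:67372859-67373108 (minus strand), that of Mef2c chr13:83503784-83504033 (plus strand) and that of Mef2d chr3:88142122-88142371 (plus strand).
Mef2a: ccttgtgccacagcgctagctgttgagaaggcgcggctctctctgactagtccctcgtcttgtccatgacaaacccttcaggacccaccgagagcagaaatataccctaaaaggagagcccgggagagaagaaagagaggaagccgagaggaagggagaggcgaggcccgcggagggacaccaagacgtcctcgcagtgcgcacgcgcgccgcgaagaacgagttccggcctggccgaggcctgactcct
Mef2c: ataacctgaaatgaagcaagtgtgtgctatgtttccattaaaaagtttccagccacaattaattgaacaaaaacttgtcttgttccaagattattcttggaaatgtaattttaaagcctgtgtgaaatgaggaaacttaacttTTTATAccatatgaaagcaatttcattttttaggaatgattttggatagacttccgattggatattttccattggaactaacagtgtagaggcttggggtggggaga
Mef2d: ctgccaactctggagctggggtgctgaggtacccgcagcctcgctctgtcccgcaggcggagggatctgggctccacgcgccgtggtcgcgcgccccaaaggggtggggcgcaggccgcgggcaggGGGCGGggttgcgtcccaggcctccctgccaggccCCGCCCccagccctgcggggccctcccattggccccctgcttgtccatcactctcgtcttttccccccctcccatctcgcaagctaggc
The MEF2 core (CTA and TAG with 4 bases between them), held by 3.20% of 32851 promoters of this length, was in none of the 5 windows. The cAMP response element core TGACGTCA (1.55% of promoters) and the interferon response element core (GAAA and again GAAA after 2 bases; 2.98%) were in none of them either. A TATA box TATAAA (12.4%) stood in the printed Mef2c promoter and at its second start. GC boxes GGGCGG (32.7%) stood in Mef2d, with 2 matches, and at the second Mef2c start, with 1. The printed promoters differed in base composition, with 61.6% G and C in Mef2a, 33.6% in Mef2c and 73.2% in Mef2d, against a median of 52.4% over all promoters. A match is a description of letters and not of a bound site.

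In the HSV libraries, each gene had 1 short exon: 24 nt in Mef2a (chromosome 7, 74389407 to 74389430, minus strand), 24 nt in Mef2c (chromosome 13, 83794203 to 83794226, plus strand) and 21 nt in Mef2d (chromosome 3, 87965703 to 87965723, plus strand). They were taken as the beta exons by their length of 27 nt or less, without a comparison with annotated exons. Each length is a multiple of 3, so inclusion keeps the reading frame. These coordinates are as the HSV table gives them and are not those of GRCm38, since 0 of the 18 events fell within the GRCm38 bounds of the gene. All 3 exons were mostly included in every library. Mean inclusion was lower in the 3-library set for all 3, by 0.094 in Mef2a, 0.062 in Mef2c and 0.048 in Mef2d (a lower mean was found in 52.3% of tested events with a read in every library), and the difference passed the test in Mef2a.

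Inclusion of the Mef2a exon was 0.917 and 0.860 in libraries 1 and 2, and 0.751, 0.806 and 0.827 in libraries 3 to 5. It rested on 424, 378, 248, 227 and 211 including reads in libraries 1 to 5 and on 33, 53, 71, 47 and 38 skipping reads. The sets did not overlap, as in 28.4% of tested events with a read in every library. The mean fell from 0.889 ± 0.040 (SD, n = 2) to 0.795 ± 0.040 (SD, n = 3). On the logit scale, with 1 spread taken for all events and scaled by reads, the difference was -0.73 (SE 0.21, 95% interval -1.13 to -0.32, adjusted p = 0.0166, limma). It was called in the authors' deposited table as well, at an FDR of 0.000892. The call did not hold without library 1 (-0.49, adjusted p = 0.467, limma) or without library 3 (-0.56, adjusted p = 0.296, limma), the libraries with the highest and the lowest inclusion. Without read-depth weights the difference was -0.74 with an adjusted p of 0.579 in limma, a fit that called 0 of 7754 events, with 790 at an unadjusted p below 0.05.

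The Mef2c exon had inclusion levels of 0.897 and 0.845 against 0.884, 0.731 and 0.811. The sets overlapped, as library 3 was nearly as high as library 1. Means were 0.871 ± 0.037 (SD, n = 2) and 0.809 ± 0.077 (SD, n = 3). The logit difference of -0.43 (SE 0.28, 95% interval -0.98 to 0.12) did not pass the test (adjusted p = 0.515, limma). With 21, 33, 17, 26 and 26 skipping reads, differences inside that interval could not be resolved. The difference was -0.71 without library 2 and -0.65 without library 3, but -0.24 without library 1 and -0.19 without library 4.

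For the Mef2d exon, inclusion was 0.964 and 0.942 against 0.937, 0.923 and 0.856. The sets did not overlap, which 28.4% of tested events with a read in every library also show, but the gap between the nearest libraries was small. Means were 0.953 ± 0.016 (SD, n = 2) and 0.905 ± 0.043 (SD, n = 3), and library 5, with 28 skipping reads against 10 to 16 in the others, was the lowest. The logit difference was -0.75 (SE 0.35, 95% interval -1.44 to -0.07). Its unadjusted p was 0.0306 and its adjusted p 0.314 in limma, and in the authors' deposited table the FDR was 0.0696. Without library 5 the difference was -0.39 (adjusted p = 0.746, limma).

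Of the 18 MEF2 events 4 had enough reads of both forms to be tested (a mean of 20 reads per library and 10 of the rarer form), the 3 short exons and a 185-nt exon of Mef2d. The test called 1 of these 4, where 3.69% of all tested events were called and 2.00% as lower in the 3-library set. Of 404 tested exons of 27 nt or less, 28 were called (6.93%), 18 of them lower in the 3-library set (4.46%).

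**Figure D2:**
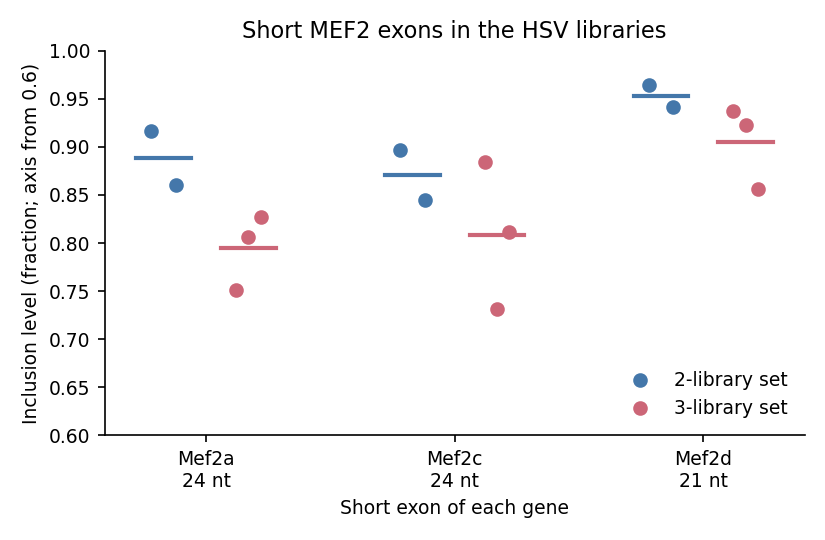
Inclusion level of the short exon of each MEF2 gene in the HSV libraries, as a fraction on an axis that starts at 0.6. Points are single libraries and lines the mean of each set. The sets stand apart in Mef2a (0.860 and above against 0.827 and below), overlap in Mef2c, and lie close together in Mef2d. Sets without overlap were found in 28.4% of tested events with a read in every library.

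Across the 5 HSV libraries the short exon was included most in Mef2d, with a mean of 0.924 ± 0.041 (SD, n = 5), and at nearly equal levels in Mef2c (0.834 ± 0.067) and Mef2a (0.832 ± 0.062). Mef2d was above Mef2a in 5 of 5 libraries, by 0.092 on average (SD 0.062), and above Mef2c in 5 of 5, by 0.091 (SD 0.060). In an exact two-sided sign-flip permutation test over the 5 libraries both differences had p = 0.0625, the smallest that 5 libraries allow, and 0.09375 after Benjamini-Hochberg adjustment over 3 pairs. Mef2c and Mef2a differed by 0.001 (SD 0.078), with Mef2c the higher in 1 of 5 libraries (exact p = 1). For scale, the median of the 404 short exons was 0.72, and Mef2a, Mef2c and Mef2d were above 60.9%, 61.4% and 78.5% of them.

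In Mef2d and Mef2c the alpha exons were used almost exclusively in 1 form. In Mef2d, the first exon of the pair (138 nt, from position 87961956) held 2836 including reads and the second (135 nt, 49 nt further on) 41. Per length the second made up 1.44% of the pair, with 1.49% and 2.92% in libraries 1 and 2 and 0.199%, 1.01% and 1.09% in libraries 3 to 5. The sets did not overlap in this share, a difference that rests on 41 reads and was not tested. For scale, inclusion levels did not overlap in 28.4% of tested events with a read in every library. In muscle the second exon is the one known to be used, in a form of Mef2d that forms as muscle cells differentiate. In Mef2c the first exon (144 nt, from position 83764760) held 1584 including reads and the second (138 nt, 61 nt further on) 11, or 0.704% of the pair per length, too few to compare the sets. In each gene the listed skipping reads of the pair were the same 7 reads, which skip both exons.

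In Mef2a the listed alpha exon was almost always left out. Its 147-nt exon (74438480 to 74438626) was included in 7 reads and skipped in 729, which join the 204-nt exon before it to a 132-nt exon after it. Skipping reads were many in every library, 213, 160, 136, 104 and 116 in libraries 1 to 5. Mef2d and Mef2c thus had 1 dominant alpha form in each of these 5 libraries. For Mef2a no listed event had another alpha exon as the exon included or skipped. Whether the 132-nt exon joined by the 729 skipping reads is the partner alpha exon was not checked, so its dominant form was not named.

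The remaining exons were close to constitutive. The 185-nt exon of Mef2d (87959600 to 87959784) had 2683 including and 11 skipping reads and inclusion of 0.985 to 1.00, with a logit difference of 0.13 (SE 0.79, adjusted p = 0.960, limma). The 191-nt exon of Mef2a was at 0.963 to 1.00 and the 193-nt exon of Mef2c at 0.981 to 1.00. The other exons of Mef2d, of 204, 211, 57, 130 and 307 nt, lay between 0.940 and 1.00. The 211-nt and 57-nt exons were listed in 2 events each, with different neighbours.

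Of the 18 events, 3 in the authors' deposited table had an FDR below 0.05, against 4.87% of all 27900 events. Beside the short exon of Mef2a these were the weakly used second alpha exons. The Mef2c exon had an FDR of 0.000315 in the authors' deposited table on 11 including and 7 skipping reads in all. Its including reads were 4, 2, 4, 0 and 1 in libraries 1 to 5, and 5 of its 7 skipping reads came from library 3. The Mef2d exon had 0.047 in the authors' deposited table on 41 including and 7 skipping reads, with inclusion of 0.537 and 0.909 against 0.345, 1.00 and 1.00. Both were below the read minimum used here, and since their skipping reads skip both alpha exons, the inclusion level does not measure the choice within the pair.

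The same 3 short exons, and no other MEF2 exon, stood in the dCas9-SET2 table. The lengths of the exon and of both introns beside it were identical between the tables, for example 399 and 1156 nt around the Mef2d exon. A neighbouring exon of Mef2a was listed with 188 nt in the HSV experiment and 86 nt in the other. Here the coordinates lie inside the GRCm38 spans: chromosome 7, 67244521 to 67244544 for Mef2a, chromosome 13, 83654598 to 83654621 for Mef2c, and chromosome 3, 88161781 to 88161801 for Mef2d. Mef2d was included more in the second set than in the first, and this was the only 1 of the 3 called in the authors' deposited table, where 4.96% of events with an adjusted p were called (2.23% as higher in the second set), and 6.76% of 340 exons of 27 nt or less.

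Summed over the 15 distinct runs, the Mef2d exon had 455 including and 94 skipping reads in the first set, an inclusion of 0.800 (95% exact binomial interval 0.761 to 0.834). In the second set it had 455 and 41, an inclusion of 0.902 (0.869 to 0.928). These intervals cover counting error only. Single runs ranged from 0.666 over a median of 0.805 to 0.954 in the first set, and from 0.792 over 0.923 to 1.00 in the second. The ranges overlapped, but 13 of 15 runs of the second set lay above the median of the first. The authors' deposited table gives a difference (dPSI) of 0.0985 with an adjusted p of 0.0296. Tests of this kind take runs as replicates, while the labels give 4 sample names per guide with 4 runs each, so their p-values do not rest on independent samples. The authors' test is not named, so a rebuilt test, paired by position and trimmed, rests on an assumption. Trimming here left out the position pairs furthest from the mean difference. This narrows the spread and makes p-values too small. The adjusted p-values of the trimmed test are therefore given for comparison only and are no evidence for the deposited call. On 16 positions the difference of the rebuilt trimmed test equalled the deposited dPSI in 91.3% of events. For the Mef2d exon it gave a difference of 0.0985 with an adjusted p of 0.0272 on 16 positions. On the 15 distinct runs it gave 0.0949 with an adjusted p of 0.0667, and calls over the whole table went from 269 to 121. With no trimming the difference was 0.1042 (adjusted p = 0.352) on 16 positions and 0.1022 (adjusted p = 0.554) on 15 runs, in tests that called 2 of 5608 events.

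The Mef2a exon had 306 including and 115 skipping reads in the first set, an inclusion of 0.682 (0.633 to 0.728), and 221 and 59 in the second, 0.751 (0.693 to 0.804). Runs spread from 0.518 to 0.828 around a median of 0.677 and from 0.502 to 1.00 around 0.751, so the second set covered the whole range of the first. In the authors' deposited table its dPSI was 0.0005 with an adjusted p of 1. The summed reads differed by 0.069. On 16 positions, the rebuilt trimmed test gave a difference of 0.0005 for this exon and the paired test with no trimming 0.0626. Whether the deposited dPSI is a trimmed mean is not stated.

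The Mef2c exon was the least deeply read, with a median of 7 reads per run in each set. Its inclusion was 0.866 (0.783 to 0.926) in the first set, from 104 including and 13 skipping reads, and 0.818 (0.721 to 0.894) in the second, from 84 and 15. Single runs went from 0.287 to 1.00 in both sets. The authors' deposited table gives a dPSI of 0.061 with an adjusted p of 0.37, the opposite sign of the -0.048 between summed reads. No direction can be given for this exon at this depth.

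**Figure D3:**
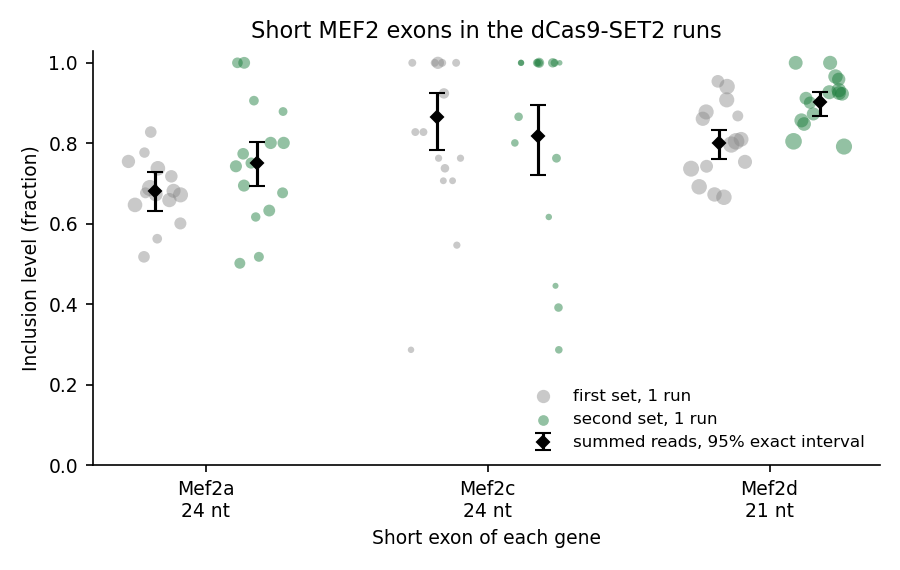
Inclusion level (fraction) of the short MEF2 exons in the dCas9-SET2 runs. Each disc is 1 of 15 distinct runs per set, its area growing with reads, and diamonds are the level of the summed reads with a 95% exact binomial interval; the intervals of the sets are apart in Mef2d (up to 0.834 against 0.869 and above) and overlap in Mef2a and Mef2c.

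In the dCas9-SET2 runs the order of inclusion, lowest first, was Mef2a, Mef2d, Mef2c in the first set and Mef2a, Mef2c, Mef2d in the second, but the intervals of Mef2d and Mef2c overlapped in both sets and those of Mef2a and Mef2c in the second. In the HSV libraries Mef2d had been the highest. Levels are not compared between the tables, since the form lengths behind an inclusion level differ, 150 nt for skipping in the HSV table and an estimated 99 nt in the other.

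The other genes of the pathway were taken from 5 lists by role, 75 genes in all. The HSV table gave coverage for 60 of them, of which 18 had lower coverage in the 3-library set (30.0%, against 9.51% of all genes), 8 had higher (13.3%, against 13.2%) and 34 were not called. Their median log2 difference was -0.01, against 0 over all genes. Of 96 tested events in 44 of these genes, 10 were called (10.4%, against 3.69% of all events), 6 higher (1.69% of all events are) and 4 lower, in 9 genes. The shares were not matched for read depth, and the lists were chosen with earlier results of these data known. They therefore do not test whether the pathway differs from other genes. Without read weights 0 of the 44 genes had a called event, in a fit that called 0 of 7754 events.

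Upstream of MEF2, the list of kinases and phosphatases was the longest, with 24 genes. Of 19 genes with coverage 8 were lower, 3 higher and 8 not called, where 9.51% of all genes were lower and 13.2% higher. Subunits of calcineurin, the calcium-dependent phosphatase that acts on MEF2, were lower. The catalytic subunit Ppp3ca had 2580 and 2290 CPM against 946, 980 and 963 (log2 -1.34, SE 0.08, adjusted p = 1.32e-07, limma). Its regulatory subunit Ppp3r1 had 1980 and 1600 against 894, 782 and 868 CPM (log2 -1.07, adjusted p = 6.21e-06, limma). Ppp3cb, the other catalytic subunit on the list and named after its value was seen, was at -0.58 (adjusted p = 0.00138, limma). Camk4, a nuclear calmodulin-dependent kinase, had 139 and 128 against 46.6, 38.1 and 43.7 CPM (log2 -1.64, adjusted p = 4.46e-06, limma). Camk2b was lower as well, at -0.74 (adjusted p = 2.46e-05, limma). The higher genes, also named after their values were seen, were other calmodulin-dependent kinases: Camk2d at 1.20, Camk1 at 0.66 and Camk2g at 0.63. In the same libraries the median log2 difference of the medium spiny neuron markers was -1.46.

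Of 8 genes for repressors of MEF2, 1 was called (22.7% of all genes were), Hdac5, a class IIa deacetylase that leaves the nucleus on phosphorylation. Its coverage was 111 and 127 CPM against 166, 166 and 175, a log2 difference of 0.51 (SE 0.11, adjusted p = 0.00436, limma). None of the 14 tested events of the repressors was called in limma. Among 10 coactivators and partners with coverage, the acetyltransferase gene Ep300 was higher, with 17.9 and 11.3 against 31.6, 26.0 and 31.4 CPM (log2 1.05, adjusted p = 0.00991, limma). Without library 2 it was at 0.72 with an adjusted p of 0.0621 in limma. Smarca4, a chromatin remodeller ATPase, was called as lower at -0.32 (adjusted p = 0.0484, limma) and was not called in fits without library 1, 3, 4 or 5 (adjusted p = 0.219, 0.117, 0.0775 and 0.145, limma).

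Of 10 MEF2 target genes known from neurons 2 had a coverage value, and they moved in opposite directions. Homer1, a scaffold protein of the postsynapse, had 219 and 190 CPM against 93.4, 88.3 and 85.0 (log2 -1.19, SE 0.12, adjusted p = 9.83e-06, limma). Pcdh10, a protocadherin, had 177 and 186 against 257, 210 and 285 CPM (log2 0.45, adjusted p = 0.0178, limma), with an adjusted p of 0.0713 when library 3 was left out and of 0.0871 when library 5 was. Arc, Bdnf, Nr4a1, Jun, Klf4, Egr1 and Fos were among those without a value, so the immediate early targets were not covered.

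Genes for regulators of short, neuronal and muscle exons were measured in 21 of 22 cases, with 8 lower, 2 higher and 11 not called. Of all genes 9.51% were lower and 13.2% higher. Rbfox proteins bind UGCAUG beside alternative exons. Rbfox1 had 480 and 358 CPM against 215, 209 and 237 (log2 -0.91, adjusted p = 0.00013, limma), and Rbfox3, itself a neuron marker, 342 and 289 against 173, 185 and 169 (log2 -0.84, adjusted p = 7.69e-05, limma). Celf5 had 182 and 163 against 90.5, 93.1 and 95.9 CPM (log2 -0.88, adjusted p = 9.69e-05, limma). Higher were Celf6, with 66.1 and 62.4 against 115, 148 and 120 CPM (log2 0.98, adjusted p = 0.000192, limma), and Srrm4, the neuronal regulator of very short exons, named after its value was seen (log2 1.33, SE 0.29, adjusted p = 0.00496, limma). In the same libraries 3 of 4 measured neuron markers were lower and 1 was higher.

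**Figure D4:**
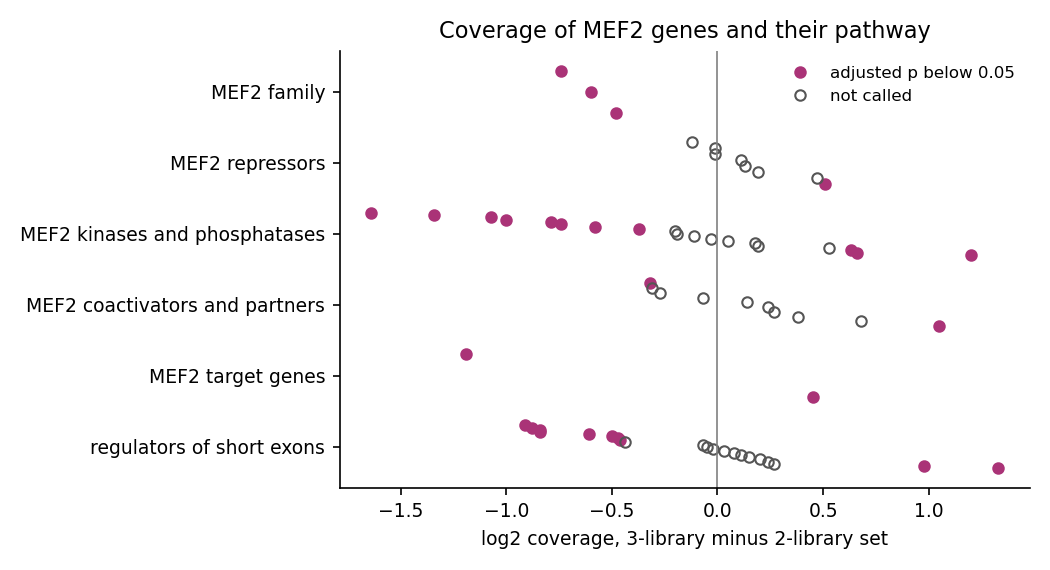
Log2 difference of coverage, 3-library minus 2-library set, for the MEF2 genes and 5 lists of pathway genes in the HSV table. Each point is 1 gene, filled where its adjusted p is below 0.05; the 3 MEF2 genes lie between -0.74 and -0.48, the kinases and phosphatases spread from -1.64 to 1.20, and among repressors 1 of 8 points is filled.

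Among called events of these lists, a 30-nt exon of Ppp3ca (chromosome 3, 136594975 to 136595004) had the smallest adjusted p. Its inclusion was 0.939 and 0.909 against 0.766, 0.799 and 0.775, a logit difference of -1.25 (SE 0.06, adjusted p = 4.01e-85, limma). The fit takes 1 spread for all events, so deep events reach very small p-values, and without read weights the difference was again -1.25 but the adjusted p 0.401 in limma, in the fit that called 0 of 7754 events. A 39-nt exon of Gsk3b (chromosome 16, 38217199 to 38217237), in the gene of a kinase that acts on many neuronal substrates, was included more: 0.138 and 0.052 against 0.200, 0.230 and 0.255 (logit 0.92, SE 0.22, adjusted p = 0.00183, limma). Without library 2 it was at 0.61 with an adjusted p of 0.245 in limma, and without library 1 at 1.67 with 0.000561. A 150-nt exon of Celf6 (chromosome 9, 59451255 to 59451404) was at 0.770 and 0.870 against 0.942, 0.976 and 0.991 (adjusted p = 0.018, limma). It was not called in fits without library 1 (adjusted p = 0.396), library 4 (0.136) or library 5 (0.0696). The other called events were in Camk2a, Camk2b (2 events), Smarca4 and Nova1 and, named after their values were seen, Camk2g and Sik3. Logit differences were -0.82 for the 45-nt Camk2b exon (adjusted p = 1.06e-41, limma), 1.53 for Camk2a (adjusted p = 1.44e-20, limma) and -2.07 for Nova1 (adjusted p = 6.99e-09, limma). With single libraries left out these were -0.86 to -0.76, 1.40 to 1.63 and -2.84 to -1.74. The Smarca4 exon was not called without library 2, 3 or 5 (adjusted p = 0.216, 0.0712 and 0.0521, limma).

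Of 76 pathway events in the dCas9-SET2 experiment, 3 were called in the authors' deposited table (3.95%, against 4.96% of all events with an adjusted p), a share near the background. These were a 42-nt exon of Camk2d (dPSI 0.266, adjusted p = 0.0493), a 36-nt exon of Mbnl2 (0.068, adjusted p = 0.0374) and a 99-nt exon of the corepressor gene Ncor1 (-0.231, adjusted p = 0.0493). Camk2d and Mbnl2 were higher in the second set, as the Mef2d exon was, and Ncor1 was lower (2.72% of all events with an adjusted p were called as lower). For these 3 events no value on the 15 distinct runs is given. Over all events the rebuilt trimmed test called 121 on those runs against 269 on 16 positions.

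The exons most like each MEF2 exon over the 5 HSV libraries were found by the root-mean-square difference of inclusion after centring each event on its mean, among tested events of similar mean. For the Mef2a exon they were exons of Ppp2r2d (166 nt, 0.00982), Map3k5 (24 nt, 0.0116) and Pank2 (177 nt, 0.0119), of 2077 compared. For the Mef2c exon they were exons of Diaph1 (27 nt, 0.0122), Gatb (134 nt, 0.0127) and Atg16l1 (48 nt, 0.0140), of 2098. For the deepest tested Mef2d exon, of 185 nt, they were exons of Bzw1, Eif4a2 and Dynlrb1 (0.00101 to 0.00200, of 3437), and for its short exon, added after the values were seen, exons of Surf1, Gripap1 and Depdc5 (0.00416 to 0.00795, of 4199). None of these exons was itself called (adjusted p = 0.320 to 0.961, limma), and with 5 libraries such likeness is a description only.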

How the data were processed

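The data are a pair of exon skipping tables. The submitters' processing notes name STAR 2.4.1d, Bowtie2, mm9 and mm10 without roles, and which program listed the events is not stated there. Inclusion and skipping counts, as deposited, stand joined within cells without library names, so no sample could be given to 5 columns (HSV) and 32 columns (dCas9-SET2). Inclusion levels of the HSV table were recomputed from counts over form length (100% within 0.001). Form lengths are not listed in the dCas9-SET2 table; taking 99 nt for skipping reproduced 78.43% of its levels within 0.001. The p-value, FDR and adjusted p-value (padj) are the authors', by tests that no source here names, and so is the difference score deposited by the authors, with 321 events lacking padj. Reads inside an exon count toward inclusion.

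For the HSV table limma 3.58.1 (R 4.3.3) was run on logit inclusion, adding 0.5 to counts and weighting values by their reads, for 7754 events with a mean of 20 reads per library and 10 of the rarer form. The two-sided p-values of limma were adjusted over all of them (Benjamini-Hochberg) and called at 0.05. Coverage (reads over each gene's deepest event, mean of at least 20 per library) was scaled by TMM (trims 0.3 and 0.05). Log2 CPM went into limma with a trended spread, and the 0.5 added to counts understates fold changes of low genes. Inclusion in the dCas9-SET2 table is described from summed reads, with exact binomial intervals. Python 3.11.15 and scipy 1.17.1 gave intervals and the sign-flip test.

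The members and lists were chosen with earlier results of these data known. Text names all MEF2 events, at most 4 called genes per list with the smallest adjusted p, and the 3 events most like each member's deepest tested event. Exceptions are stated. Promoters come from RefSeq, and exon sequences are not shown.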

Additional observations from a re-analysis of the deposited data

How the results depend on the processing

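Of the 4 tested MEF2 events in the HSV table, 1 was called in limma. It was called as well with the spread trended on depth, with a lower read minimum and with 1 added to each count. The count was 0 without read weights, with 0 of the MEF2 events at an unadjusted p below 0.05, and 0 when events needed only 1 read in every library, with 3 at an unadjusted p below 0.05 (Mef2a adjusted p = 0.0941, limma). It was 3 of 18 by the FDR of the authors' deposited table and ranged from 0 to 1 when each library was left out. Over the whole table the 286 calls became 0 without weights and 137 to 222 without single libraries. Coverage calls of the 3 genes ranged from 2 to 3 without single libraries, and were 3 with reads summed over all events. The authors' deposited table called 1 of the 3 MEF2 events of the dCas9-SET2 experiment. The paired test called 0 with no trimming on 16 positions, 0 with trimming on 15 distinct runs and 0 with no trimming on 15 distinct runs, with 1 at an unadjusted p below 0.05 in each of these tests. All of these tests take as replicates runs that share 4 sample names per guide. Those run here also entered runs with no reads as fully skipped, and trimming makes p-values too small, as described. Over all events of that experiment, the authors' 262 calls compare with 269 in the rebuilt trimmed test on 16 positions, 121 in the same test on 15 distinct runs and 2 with no trimming. The rebuilt trimmed test on 16 positions, the tests on distinct runs and the coverage of the short exon's event were chosen after seeing the data. No called result for a short exon or for coverage of the 3 genes reversed its direction under any alternative run. The uncalled Mef2c exon of the dCas9-SET2 runs changed sign between summed reads and dPSI, as described. Directions of the second alpha exons, called only by the authors' FDR, were not checked. No paired analysis was possible because the columns carry no sample names or replicate numbers, and the position pairing above is only that of the authors' table. Depth limits the skipping form: the Mef2d exon had 10 to 28 skipping reads per HSV library.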
